A study of Mus musculus with 24 samples.

Results

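The transcriptional response to high-fat diet (HFD) that aortic and skeletal muscle endothelium of WT and KO mice had in common was measured on all 24 arrays of the series, taken as 12 pairs of an HFD and a chow array. Each pair joined arrays of the same strain, the same tissue and the same trial number in the sample titles, so that every 1 of the 24 arrays was used once. WT mice were C57BL/6 and KO mice carried the Galectin-3(-/-) genotype, a targeted deletion within Lgals3 on the same background. Male mice were fed from 8 weeks of age for 8 weeks, either HFD with 60% of its calories from fat or chow with 12%. The aorta (Aorta) and a group of leg muscles (SkM) were digested, tissue of 3 to 4 mice was pooled, and about 10000 live cells that carried CD105 (endoglin, an endothelial surface protein) and lacked CD45 (the common leukocyte antigen) were sorted. The amplified, Cy3-labelled RNA of each pool was read on a single-colour Agilent mouse array. The 8 groups (WT chow, WT HFD, KO chow and KO HFD in each tissue) held 3 arrays each, and the deletion was the only allele that distinguished the strains in the labels. By the study's methods, both tissues of a strain, diet and trial appear to come from 1 pool of animals, so the 12 pairs rest on 6 sets of animals. Nothing in the labels gives the time of day at which tissue was taken.

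Endothelial cells line all vessels, but those of a conduit artery and those of muscle capillaries differ in their shear, in the nutrients they pass on and in the cells that surround them. Systems known to react to diet in many cell types bear on what follows. The circadian clock is a loop in which BMAL1 (gene Arntl) and CLOCK switch on genes through E-box elements. Among them are Nr1d1 and Nr1d2, whose products REV-ERBα and REV-ERBβ in turn repress Arntl. Others are Dbp and Tef, which carry the rhythm to other genes, and Ciart, whose product represses BMAL1 activity. The aryl hydrocarbon receptor is a ligand-activated transcription factor for planar aromatic compounds of food and environment, and Cyp1a1, a monooxygenase that oxidises them, is its best known target. The subendothelial matrix, a basement membrane of laminins, collagens IV, XV and XVIII and nidogens, is made by endothelial cells and their neighbours and is known to thicken in diabetes.

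The level of a probe on an array is given as the log2 of its processed signal over the array's 75th percentile, and the response of a pair as the HFD level minus the chow level, so that 1 is a doubling. Of 41174 probes, the 26712 that were well above background on at least 12 of the 24 arrays were tested. The 75th percentile of the processed signal lay between 2390 and 5938, and the share of spots well above background, controls aside, ran from 59.5% to 75.7%. The arrays filled 6 slides of 4, each with the 4 groups of 1 tissue and trial, in 2 scan sessions, the first with trial 1. Diet followed the place on the slide, with chow in the first positions in trial 1 and HFD in the first positions in trials 2 and 3. Galectin-3 mRNA was no check of the strain labels. The Lgals3 probe was well above background on 24 arrays and lay higher on the KO array in 11 of 12 comparisons within tissue, diet and trial (level 0.90 to 4.98, median 3.23, in WT and 2.40 to 6.31, median 4.42, in KO), and whether it reads the deleted part of the gene was not analysed here. At 15 probes chosen from these data because they separated the strains in trials 2 and 3, the HFD arrays of trial 1 scored, on a scale from 0 (WT) to 1 (KO), 0.22 for the aorta library labelled WT and 0.41 for that labelled KO, and 0.59 for the muscle library labelled WT and 0.53 for that labelled KO. The chow arrays of trial 1 scored -0.01 to 0.15 in WT and 0.91 to 0.94 in KO. At these probes the HFD libraries of trial 1 thus lay outside the range of the trial's chow arrays of either strain. The aorta library labelled WT lay nearest to WT, and the other libraries lay further between the strains. Whether the libraries were mixed or mislabelled was not tested, and their strain is given as labelled. A mean of the WT and KO pair of a slide does not depend on those labels, so calls were also made over such slide means and without trial 1.

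Over the 12 pairs, 626 probes rose and 586 fell on HFD (limma on the pair responses, Benjamini-Hochberg adjusted p under 0.05). That was 4.54% of the probes tested, 2.34% higher and 2.19% lower, so that 51.7% of the calls were upward. With each array centred on its median instead, 828 rose and 446 fell, 65.0% upward. They carried 895 gene symbols. The median size of the change among the probes called was 0.78, against 0.22 over all probes tested, and 381 changed by more than 1 on the log2 scale, 206 upward and 175 downward. All 12 pairs agreed in sign for 257 probes that were higher on HFD (0.962% of those tested) and 176 that were lower (0.659%), and 372 of these 433 probes (1.62%) were among those called. Levels separated completely for 6 probes, with 2 (0.00749%) where all 12 HFD arrays lay above all 12 chow arrays and 4 (0.015%) where they lay below. Those lower on HFD were Cyp1a1, Aldh6a1 (a mitochondrial dehydrogenase of valine breakdown), Ddb2 (a DNA damage recognition factor) and Chpt1 (a choline phosphotransferase), and those higher were Ift122 (a subunit of the ciliary transport machinery) and a probe without a gene symbol.

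The calls depended on how many independent values were assumed. With the tissues of an animal set averaged, 115 probes rose and 71 fell over 6 values. The strains of a slide were also averaged, to 6 values that are both tissues in trials 1, 2 and 3. The tissues of a trial appear to share animals, so these 6 values are not fully independent. Over them 11 rose and 2 fell, with 4092 probes at an unadjusted p under 0.05. The named ones among these 13 were Cyp2e1, Dbp, Cyp1a1, Igf1, Tub, Col15a1, Flrt3, Cpne7, Dio2, Anxa13, Dclk1 and Nrep (Igf1 on its second probe), and the calls of all other genes named below were lost over these slide means. Without trial 1, the calls were 21 up and 24 down, without trial 2 they were 8 up and 6 down, and without trial 3 they were 570 up and 464 down. Of the 1212 probes called over the 12 pairs, 40, 13 and 604 were called again in these. Of the 24 genes with the largest changes named below, 10, 6 and 19 were called without trials 1, 2 and 3 and 5 over the 6 slide means, and of 63 called genes of the lists below, 9, 5 and 36 were and 4 over the slide means. The responses of the WT and KO pair of a slide, which also share tissue and trial, correlated over probes with a median r of 0.31 (0.11 to 0.38, 6 slides), those of both tissues of a set of animals with 0.08 (0.02 to 0.28, 6 sets), those of the same tissue in other trials with 0.16 and those of another tissue and trial with 0.07. These values are descriptions across probes, which share arrays. They ranged from -0.06 to 0.39 over the 66 pairs of responses, and 8 were below 0.

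**Figure D1:**
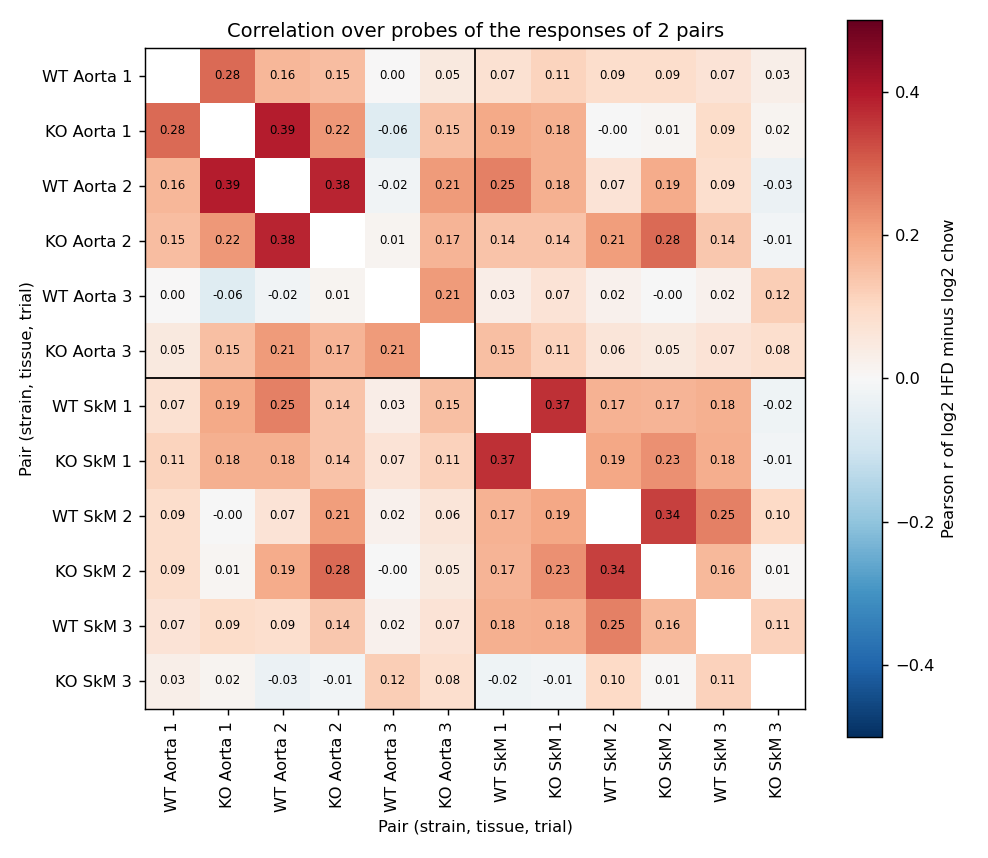
Pearson correlation over the tested probes between the HFD minus chow responses of each 2 pairs of arrays, ordered by tissue, trial and strain, with black lines between the tissues and the diagonal left blank. Values range from -0.06 to 0.39, the median is 0.31 for the WT and KO pairs of 1 slide, and the highest value joins aorta pairs of different trials.

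**Figure D2:**
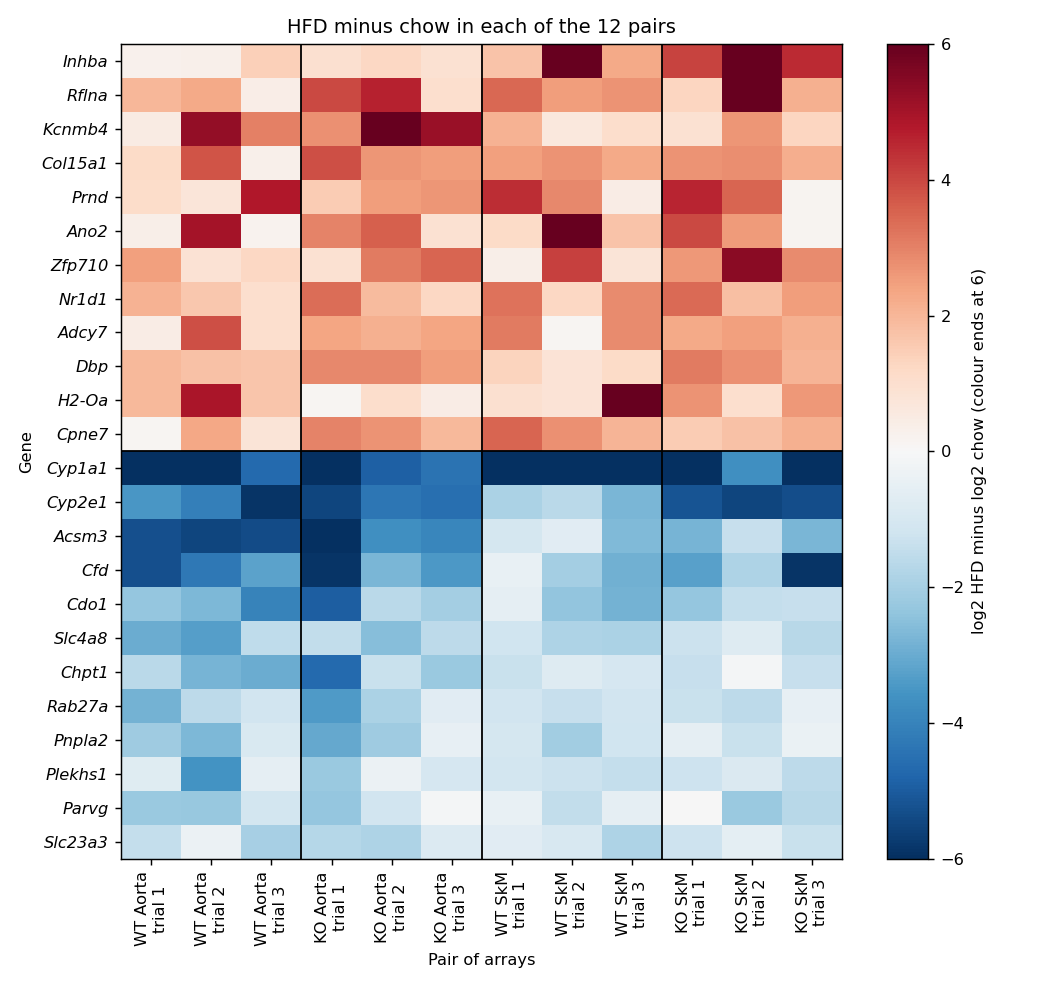
Response of the 12 genes with the largest rise (upper block) and the 12 with the largest fall (lower block) among genes called with the same sign in 12 of 12 pairs. Each column is a pair of arrays, the colour is log2 HFD minus log2 chow and saturates at 6, and Cyp1a1 is the darkest row, from -9.90 to -3.69.

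The largest change was that of Cyp1a1. Its level ran from -1.01 to 2.12 (median 0.35) on the 12 chow arrays and from -9.19 to -3.53 (median -6.38) on the 12 HFD arrays, without overlap. The mean response was -6.80 ± 0.52 (standard error, 12 pairs, limma adjusted p = 0.000127), and single pairs lay between -9.90 and -3.69. It was -6.30 ± 1.43 (SD, n = 3) in WT aorta, -5.93 ± 2.21 in KO aorta, -8.18 ± 1.73 in WT muscle and -6.79 ± 2.70 in KO muscle. The probe was well above background on all 12 chow arrays but on only 4 of the 12 HFD arrays. With dim signals raised to the lowest signal that was well above background on the array, the difference was -6.05, which makes the level at least 66.4-fold lower on HFD. It passed the threshold without each trial in turn and over the 6 slide means (limma adjusted p = 0.0119).

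Other genes tied to the aryl hydrocarbon receptor did not pass the test. In a list of 10 genes written after the values of Cyp1a1 had been seen, 8 were tested and Cyp1a1 was the only one called. Ahr, the receptor itself, differed by -0.23 ± 0.29 (adjusted p = 0.681) and Ahrr, its repressor and target, by -0.16 ± 0.47 (adjusted p = 0.872). Tiparp, a target that marks the receptor for degradation, differed by 0.09 ± 0.15, and Cyp1b1, a related monooxygenase, by 0.79 ± 0.29 (adjusted p = 0.118), higher in 9 of 12 pairs. Nqo1, a quinone reductase, differed by -0.46 ± 0.15 and Xdh, xanthine dehydrogenase, by -0.58 ± 0.16 (adjusted p = 0.0506). The window of 300 bases around the start of Cyp1a1 (RefSeq, GRCm38.p6, plus strand, chr9:57697363-57697662) is printed because its gene gave the largest change. It held 1 copy of the receptor's core element, GCGTG on either strand, shown in capitals. Of 32851 promoter windows of the same length, 32.4% held this element, so the match is a description.
Cyp1a1 promoter: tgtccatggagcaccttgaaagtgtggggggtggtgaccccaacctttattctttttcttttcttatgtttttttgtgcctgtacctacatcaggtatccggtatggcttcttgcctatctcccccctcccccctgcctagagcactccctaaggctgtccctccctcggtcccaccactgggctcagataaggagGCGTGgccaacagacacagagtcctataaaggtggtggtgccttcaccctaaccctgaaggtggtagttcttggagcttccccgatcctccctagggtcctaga

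A further cytochrome P450 followed it. Cyp2e1, which oxidises ethanol, acetone and fatty acids, had levels of -4.17 to 3.63 (median -0.04) on chow and -8.06 to -1.89 (median -4.27) on HFD. The groups overlapped across tissues, but the level fell in 12 of 12 pairs, with a mean response of -4.17 ± 0.38 (limma adjusted p = 0.000317). On HFD, 9 of the 12 arrays held it well above background. The fall passed the threshold without each trial and had the smallest adjusted p of all probes over the 6 slide means (0.00293).

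The clock genes moved in opposite directions. Of 12 core clock genes tested, 2 rose and 2 fell, and of 10 clock output genes 3 rose and none fell, where 4.91% of all 14185 genes, each read on its brightest probe, were called, 3.09% higher and 1.82% lower. Of all genes, 1.26% were higher in 12 of 12 pairs and 0.691% lower. Nr1d1 had levels of -3.27 to -0.46 (median -1.80) on chow and -1.48 to 1.57 (median 0.55) on HFD, and rose in 12 of 12 pairs by 2.19 ± 0.24 (limma adjusted p = 0.000891). Its other probes gave 0.48 (adjusted p = 0.112, higher in 9 of 12 pairs) and 0.34 (adjusted p = 0.0883, 10 of 12) and were not called. Its paralogue Nr1d2 went from -0.76 to 0.79 (median -0.01) on chow to 0.58 to 2.09 (median 1.30) on HFD, a rise of 1.31 ± 0.12 in 12 of 12 pairs (adjusted p = 0.000317). Both genes encode repressors of Arntl. Dbp, a PAR bZIP factor and direct clock output, had levels of 0.66 to 2.58 (median 1.58) on chow and 2.34 to 5.61 (median 3.68) on HFD. It rose in 12 of 12 pairs, by 2.07 ± 0.21 (adjusted p = 0.000552), and only the lowest HFD arrays reached the range of the chow arrays.

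Arntl, which encodes BMAL1, had the opposite course, with levels of 0.92 to 2.04 (median 1.70) on chow and -0.25 to 2.05 (median 0.67) on HFD. It fell in 11 of 12 pairs, with a mean response of -0.87 ± 0.17 (limma adjusted p = 0.0194), and 1 WT muscle pair went the other way. Csnk1e, a kinase of the PER proteins, fell by 0.49 ± 0.11. Ciart, a repressor of BMAL1 activity, rose by 1.23 ± 0.30 in 10 of 12 pairs, and Tef, a relative of Dbp, by 0.54 ± 0.14 in 11 of 12. Genes of the same lists that were not called included Rora (-0.41 ± 0.22), an activator of Arntl, Nfil3 (-0.79 ± 0.22, adjusted p = 0.0599), which opposes Dbp at its sites, Cry1 (-0.69 ± 0.22) and Per2 (-0.72 ± 0.37), the negative limb of the loop, and Per1 (-0.15 ± 0.21) and Clock (-0.05 ± 0.09). Nr1d1, Nr1d2 and Dbp were called without each trial in turn, and Dbp also over the 6 slide means (adjusted p = 0.0119), where Nr1d1 had an adjusted p of 0.0692. The calls of Arntl, Csnk1e, Ciart and Tef were lost when any 1 of the trials was left out.

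Promoter windows of Ciart and Arntl are printed because the first holds E-boxes and the second the core of the element through which REV-ERB proteins act. The first start of Ciart (RefSeq, GRCm38.p6, minus strand, chr3:95882179-95882478) held 3 E-boxes (CACGTG, its own reverse complement), found in 7.15% of the 32851 windows. The second start of Arntl (plus strand, chr7:113207261-113207560) held 1 copy of AGGTCA, the core of the REV-ERB element, searched on both strands and found in 16.3% of the windows. The first start of Arntl held neither element, and the window of Nr1d2, which rose, held 1 copy of AGGTCA and no E-box. Elements are in capitals. The windows of Nr1d1 and Dbp held no E-box, which says only that these letters are not in this window.
Ciart promoter: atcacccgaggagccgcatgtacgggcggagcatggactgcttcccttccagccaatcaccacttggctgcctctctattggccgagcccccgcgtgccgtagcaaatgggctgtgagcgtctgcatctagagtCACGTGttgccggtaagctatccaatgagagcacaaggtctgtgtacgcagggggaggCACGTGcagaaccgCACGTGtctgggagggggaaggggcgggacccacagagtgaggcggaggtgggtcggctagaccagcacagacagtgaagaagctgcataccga
Arntl promoter: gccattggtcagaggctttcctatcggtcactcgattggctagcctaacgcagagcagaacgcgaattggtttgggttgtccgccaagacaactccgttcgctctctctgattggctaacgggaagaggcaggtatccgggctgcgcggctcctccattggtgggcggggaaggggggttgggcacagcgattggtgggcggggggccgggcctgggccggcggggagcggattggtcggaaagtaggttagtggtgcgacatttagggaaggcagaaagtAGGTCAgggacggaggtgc

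**Figure D3:**
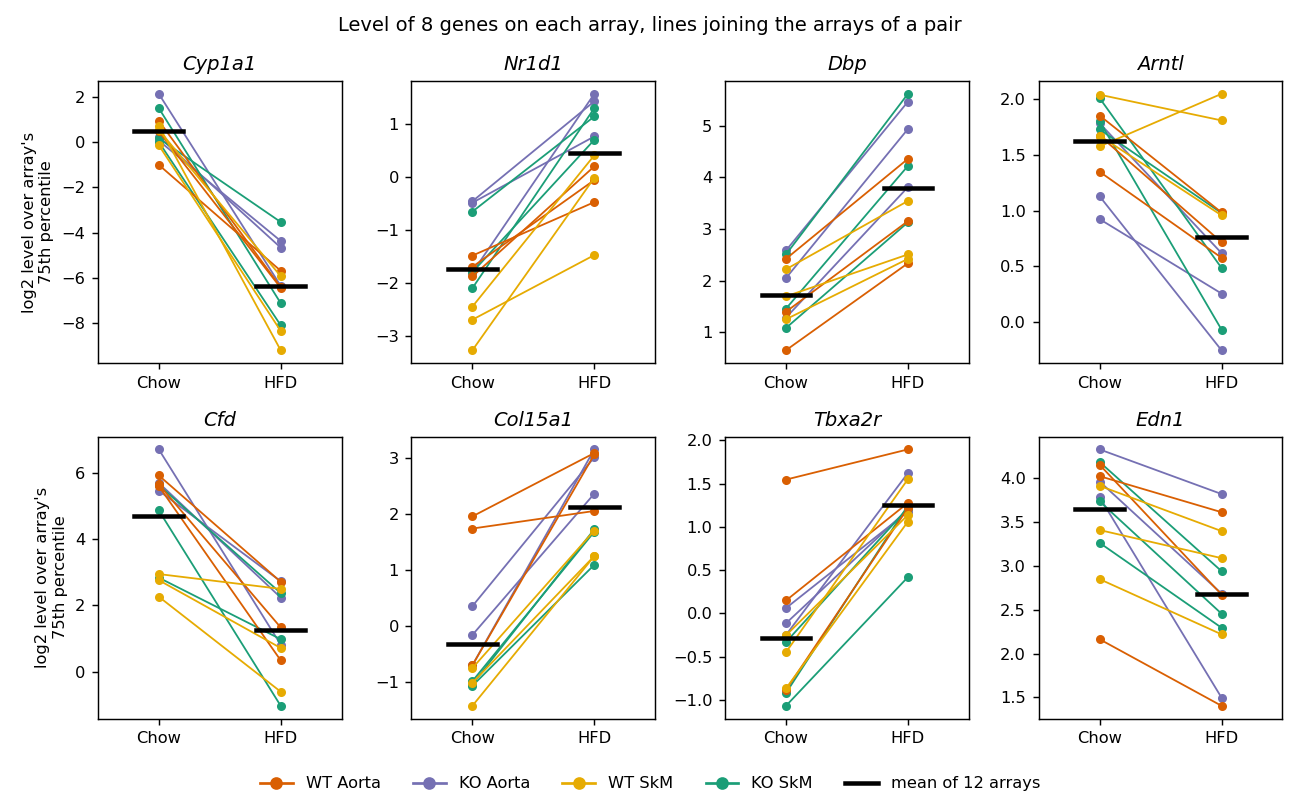
Level of 8 genes (log2 of the signal over the array's 75th percentile) on the chow and HFD arrays, with a line for each of the 12 pairs, coloured by strain and tissue, and a black bar at the mean of 12 arrays. Cyp1a1 does not overlap between the diets, Nr1d1, Dbp, Col15a1 and Tbxa2r rise in 12 of 12 pairs, Cfd and Edn1 fall in 12 of 12, and Arntl falls in 11.

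Markers of fat cells were among the genes that fell. Of 10 adipocyte markers tested, 4 fell and none rose, where 1.82% of all genes fell, and the median over the 10 was -1.25, against 0.04 over all genes tested. Cfd, which encodes the complement protease adipsin, had levels of 2.26 to 6.70 (median 5.52) on chow and -1.03 to 2.72 (median 1.15) on HFD, and fell in 12 of 12 pairs with a mean response of -3.43 ± 0.44 (limma adjusted p = 0.00268). The mean response was -2.81 ± 0.66 for Retn, the hormone resistin, -2.63 ± 0.70 (adjusted p = 0.0495) for Adipoq, the hormone adiponectin, and -2.17 ± 0.45 for Cidec, a lipid droplet protein. The study named Cfd, Retn, Adipoq, Cyp2e1, Car3, Slc2a4, Eln, Col15a1, Tbxa2r, Edn1, Gucy1a1, Lcn2, Igf1 and Igf1r from these same arrays, so their direction here is no independent evidence. The same holds for Dbp, Arntl, Inhba, Pdgfra, Hyou1, Pnpla2, Col1a1 and Col3a1. The study's supplement lists these among aortic transcripts that HFD changed in WT or KO. The falls were larger in aorta than in muscle for Adipoq, at -5.47 ± 0.86 (SD, n = 3) in WT aorta and -4.11 ± 2.45 in KO aorta against 0.24 ± 0.76 in WT muscle and -1.17 ± 0.90 in KO muscle, but the difference between the tissues was not past the threshold (adjusted p = 0.12). Lep, which encodes leptin, was not tested, since it was too rarely above background, and Fabp4, which capillary endothelium also makes, differed by -0.09 ± 0.11. Without trial 2 none of these 4 falls was called, without trial 1 or trial 3 only that of Cfd was, and over the 6 slide means Cfd had an adjusted p of 0.0692.

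Several enzymes of lipid and amino acid metabolism fell with them. The mean response was -3.69 ± 0.63 for Acsm3, a medium-chain acyl-CoA ligase that was well above background on 7 of the 12 HFD arrays, and -2.38 ± 0.32 for Cdo1, cysteine dioxygenase. Pnpla2, adipose triglyceride lipase, fell by 1.51 ± 0.24 on 1 probe, but its brightest probe did not pass (-0.67, adjusted p = 0.0564). Chpt1 fell by 1.80 ± 0.32 on 1 of its 3 probes, while the other probes differed by -0.20 and -0.04. In the list of PPAR targets and fatty acid oxidation, 1 of 27 genes fell, Acadm, a medium-chain acyl-CoA dehydrogenase (-0.49 ± 0.11, lower in 12 of 12 pairs), and Pdk4 (-0.72 ± 0.20, adjusted p = 0.0559) and Cpt1a (-0.08 ± 0.13) were not called. None of 14 genes of endothelial fatty acid uptake and none of 14 of lipogenesis was called. Beside these list counts and those that follow, 3.09% of all genes rose and 1.82% fell. In the list of cholesterol synthesis, 1 of 20 genes rose, Dhcr7, its last enzyme (0.75 ± 0.11, 12 of 12 pairs), with 0.05 on its other probe. Of 17 genes of scavenger receptors and lipoprotein handling, 2 fell, Nr1h3, the sterol sensor LXRα (-0.60 ± 0.11, 12 of 12 pairs), and Mylip, a ubiquitin ligase that is its target (-1.06 ± 0.21, 11 of 12). Slc2a4, the insulin-regulated glucose carrier GLUT4, was 2.15-fold lower in the mean (standard error 0.29 on the log2 scale, adjusted p = 0.0482) and lower in 12 of 12 pairs. None of these calls held without trial 2 or over the 6 slide means, and without trial 1 only that of Cdo1 did. Among 6 brown fat markers tested, 1 rose, Dio2, a deiodinase that activates thyroid hormone (1.99 ± 0.32, 12 of 12 pairs), which held over the slide means (adjusted p = 0.0232) but not without trial 1 or trial 2, while Ucp1, which defines brown fat, differed by 0.06 ± 0.56. The other 4 were below 0 and not called, among them Cidea, a lipid droplet protein (-1.36 ± 0.45, adjusted p = 0.0928), and the median over the 6 was -0.74.

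Marker lists of other cells moved with diet in the same arrays. The log2 of the summed level of the adipocyte list was lower on HFD in 11 of 12 pairs, with a mean difference of -0.64 ± 0.61 (SD). It ran from 7.85 to 9.04 on chow and from 6.77 to 7.57 on HFD in aorta. In muscle it ran from 7.64 to 8.32 on chow and from 7.29 to 8.04 on HFD. Its median in muscle on chow was 7.87, where the median level was 2.89 for Cfd and -1.23 for Adipoq. In muscle the sum thus rested mostly on other members of the list, which include Fabp4 and Lpl. The fibroblast sum was higher in 10 of 12 pairs, with a mean difference of 0.67 ± 0.73, and ran from 8.49 to 9.47 on chow and from 8.76 to 9.77 on HFD in aorta, and from 4.62 to 7.18 on chow and from 5.20 to 7.86 on HFD in muscle. The lymphocyte sum was higher in 10 of 12 pairs (mean 0.69 ± 0.79), at levels of -1.74 to 1.61 over all arrays. The endothelial sum was lower in 8 of 12 pairs (mean -0.26 ± 0.58) and never under 7.80, with the lower values mostly in aorta (5 of 6 pairs, against 3 of 6 in muscle). The sums for macrophages and for platelets and red cells were each lower in 5 of 6 aorta pairs and higher in 5 of 6 muscle pairs, and the mean difference of the macrophage sum was -0.52 ± 0.61 in aorta and 1.14 ± 1.33 in muscle. Fewer cells of a type and less RNA per cell cannot be told apart in these pools, and the part of other cells in the results on fat cell, matrix and immune genes was not tested. No marker gene of the endothelial, fibroblast or smooth muscle lists was below background on every array of a tissue and diet.

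**Figure D4:**
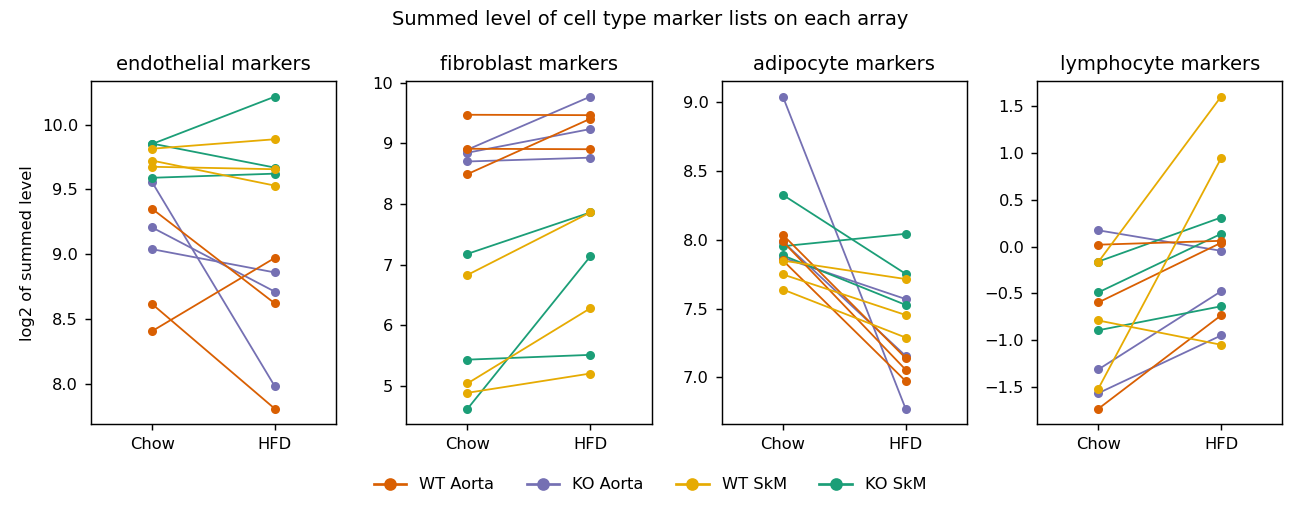
Log2 of the summed level of the marker genes of endothelial cells, fibroblasts, adipocytes and lymphocytes on each array, with a line for each of the 12 pairs, coloured by strain and tissue. The adipocyte sum is lower on HFD in 11 of 12 pairs, the fibroblast and lymphocyte sums are higher in 10 of 12, and the endothelial sum is lower in 8 of 12.

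Of 18 endothelial marker genes, all were tested, 1 fell and none rose, where 1.82% of all genes fell and 3.09% rose. The gene called was Pecam1, the junction protein CD31, which fell by 1.02 ± 0.24 (limma adjusted p = 0.0336), in 11 of 12 pairs, from a median level of 1.79 on chow to 0.86 on HFD, and which lost its call without trial 1 or trial 2. All 18 mean differences were below 0, with a median of -0.31, and 5 had an unadjusted p under 0.05. Of all 26712 probes tested, 6299 had such a p, 3137 of them lower, and 56.3% of all genes were above 0. Cdh5, VE-cadherin, differed by -0.33 ± 0.18, Tie1 by -0.26 ± 0.27, Vwf, von Willebrand factor, by -0.10 ± 0.16 and Kdr, the main VEGF receptor, by -0.01 ± 0.17. The median over the 18 was -0.42 in WT aorta and -0.81 in KO aorta, against -0.03 in WT muscle and 0.03 in KO muscle.

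Among genes of the extracellular matrix, calls were upward. Of 19 basement membrane genes tested, 5 rose and none fell, where 3.09% of all genes rose and 1.82% fell, with a median of 0.36 over the list, and the list's median was above 0 in 12 of 12 pairs. Col15a1, the chain of collagen XV, which ties basement membranes to the collagen fibres outside them, had levels of -1.43 to 1.95 (median -0.73) on chow and 1.09 to 3.15 (median 1.89) on HFD. It rose in 12 of 12 pairs by 2.44 ± 0.26 (limma adjusted p = 0.000891), and only WT aorta on chow reached the HFD range, in 2 of 3 arrays. A further probe of the gene gave 2.43 (adjusted p = 0.0104). The rise was 1.74 ± 1.81 (SD, n = 3) in WT aorta, 3.02 ± 0.73 in KO aorta, 2.47 ± 0.20 in WT muscle and 2.54 ± 0.33 in KO muscle. It lost its call without trial 2 (adjusted p = 0.0804) and held over the 6 slide means (adjusted p = 0.0232). Col18a1, the source of endostatin, rose by 0.82 ± 0.19, Lamb1, a laminin chain, by 1.09 ± 0.17 in 12 of 12 pairs, Nid2, which links laminin to collagen IV, by 0.50 ± 0.13, and Agrn, a heparan sulphate proteoglycan, by 0.45 ± 0.12. The main collagen IV chains Col4a1 (0.26 ± 0.10, adjusted p = 0.144) and Col4a2 (0.28 ± 0.18) were not called. Without trial 2, none of the 5 rises was called, and without trial 1 only that of Col15a1 was.

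Calls among interstitial matrix genes were upward too. Of 17 genes of fibrillar collagens and elastic fibres, 3 rose and none fell, where 3.09% of all genes rose and 1.82% fell. All 17 mean differences were above 0, against 56.3% of all genes, and the median was 0.81. An unadjusted p under 0.05 was seen for 16 of the 17, against 3162 higher among the 26712 probes tested. Mfap4, an elastic fibre protein, rose by 1.80 ± 0.34, Loxl1, which crosslinks elastin, by 1.43 ± 0.22, both in 12 of 12 pairs, and Col5a1, which sets the diameter of collagen fibres, by 1.08 ± 0.23, with 0.53 on its other probe (adjusted p = 0.315). Col1a1 (0.91 ± 0.26, adjusted p = 0.0617), Col3a1 (0.77 ± 0.24), Eln (0.82 ± 0.26) and Fbn1 (0.75 ± 0.25) were not called. Of 15 genes of collagen processing, 1 rose, Fkbp10, a chaperone of procollagen (0.85 ± 0.16, 12 of 12 pairs). The fibroblast markers moved with them, and 3 of 12 rose: Lum, the proteoglycan lumican (1.86 ± 0.35), Clec3b, tetranectin (1.35 ± 0.33), and Pdgfra, a PDGF receptor of mesenchymal cells (1.05 ± 0.20). All 12 fibroblast markers were above 0, with a median of 0.77, whereas 7 of 14 smooth muscle and pericyte markers were, with a median of -0.01 and none called. The median of the smooth muscle and pericyte list was 0.34 in WT aorta and 0.20 in KO aorta but -0.68 in WT muscle and -0.28 in KO muscle, and its summed level was higher on HFD in 6 of 6 aorta pairs and lower in 5 of 6 muscle pairs. None of the calls for the fibre, processing and fibroblast genes held without trial 1, without trial 2 or over the 6 slide means.

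**Figure D5:**
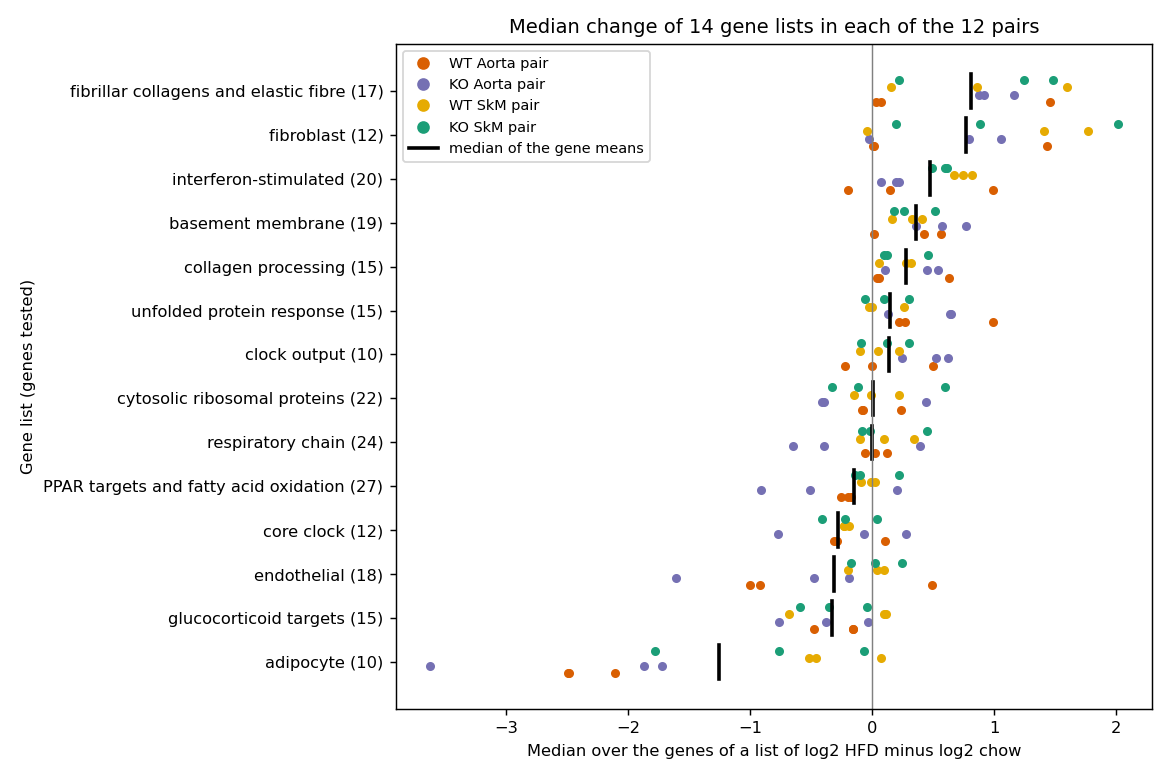
Median over the tested genes of 14 lists of the HFD minus chow response, with 1 point for each of the 12 pairs, coloured by strain and tissue, and a black bar at the median of the gene means. Both collagen lists and the basement membrane list lie above 0 in 12 of 12 pairs, the adipocyte list lies below 0 in 11 of 12, and the ribosomal and respiratory chain lists are centred on 0.

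Receptors and ligands that set vessel tone changed in both directions. Of 22 genes of vasoactive signalling, 1 rose and 3 fell, where 3.09% of all genes rose and 1.82% fell. Tbxa2r, the receptor for the constrictor and platelet agonist thromboxane A2, had levels of -1.07 to 1.55 (median -0.29) on chow and 0.42 to 1.89 (median 1.22) on HFD. It rose in 12 of 12 pairs by 1.53 ± 0.15 (limma adjusted p = 0.000552), and 1 WT aorta pair lay apart, high on both diets. Edn1, the precursor of the constrictor endothelin, had levels of 2.16 to 4.33 (median 3.85) on chow and 1.40 to 3.82 (median 2.68) on HFD and fell in 12 of 12 pairs with a mean response of -0.97 ± 0.16 (adjusted p = 0.0116). The other falls were those of Agtr1a, an angiotensin II receptor (-0.68 ± 0.14), and Gucy1a1, a subunit of the nitric oxide receptor guanylate cyclase (-1.21 ± 0.26), each in 11 of 12 pairs and past the threshold on each probe tested. Nos3, endothelial nitric oxide synthase, differed by -0.40 ± 0.22 (adjusted p = 0.292). Tbxa2r was called without each trial in turn and had an adjusted p of 0.0663 over the 6 slide means, and the 3 falls lost their calls without trial 2 and over the slide means (Edn1, adjusted p = 0.128, Agtr1a, 0.159, and Gucy1a1, 0.171). Edn1 and Agtr1a also lost theirs without trial 1, and Agtr1a and Gucy1a1 without trial 3 (adjusted p = 0.0951 and 0.115).

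Of 17 genes of insulin and IGF signalling tested, 1 rose and 2 fell, where 3.09% of all genes rose and 1.82% fell. Igf1, the ligand, rose by 1.21 ± 0.21 on its brightest probe (limma adjusted p = 0.0124, 11 of 12 pairs) and by 1.98 ± 0.23 on a second probe (adjusted p = 0.00121, 12 of 12 pairs), which held over the 6 slide means (adjusted p = 0.0119). Insr, the insulin receptor, had levels of -3.15 to -0.62 (median -1.30) on chow and -3.86 to -0.65 (median -2.42) on HFD, and fell in 12 of 12 pairs with a mean response of -1.05 ± 0.23 (adjusted p = 0.0261). The calls of Insr and of the brightest Igf1 probe were lost without trial 1 or trial 2. The other fall of the list was that of Slc2a4. Igf1r, the receptor for Igf1, gave -0.58, -0.80 and 0.76 on its 3 probes and has no settled direction. In TGF-beta and BMP signalling, 3 of 22 genes fell, the ligands Bmp4 (-0.71 ± 0.15) and Bmp6 (-0.96 ± 0.25) and their mediator Smad1 (-0.58 ± 0.13). None of them was called without trial 1 or trial 2, and Bmp4 and Smad1 were not called without trial 3 either. Inhba, the activin A subunit of the same superfamily, had the largest rise of the genes called with 12 of 12 pairs higher, 2.75 ± 0.70 (adjusted p = 0.0427), a call lost when any 1 of the trials was left out. The response ran from 0.26 to 7.99 and was 0.84 on average in aorta and 4.65 in muscle. Of the chow arrays, 8 of 12 were well above background for Inhba, and with dim signals raised to the lowest signal well above background the difference was 2.23.

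The remaining large rises were genes of scattered function. Rflna, a regulator of filamin, rose by 2.74 ± 0.45, Kcnmb4, a subunit of calcium-activated potassium channels, by 2.66 ± 0.53, and Ano2, a calcium-activated chloride channel, by 2.39 ± 0.52. Kcnmb4 and Ano2 were each well above background on 7 of 12 chow arrays. With dim signals raised to the lowest signal well above background, their differences were 2.16 and 1.88. Prnd, the prion-like protein doppel, which is found on endothelium, rose by 2.44 ± 0.44 from a median level of -1.22 on chow to 1.58 on HFD. Adcy7, an adenylate cyclase, rose by 2.09 ± 0.29 and Cpne7, a calcium-dependent membrane-binding protein, by 2.04 ± 0.25. Zfp710, a zinc finger protein, rose by 2.35 ± 0.41 on a probe that was well above background on 4 of 12 chow arrays and by 0.80 on its other probe. H2-Oa, which edits peptide loading of MHC class II molecules, rose by 2.05 ± 0.50, with 5 of 12 chow arrays well above background. With dim signals raised in the same way, the differences of these probes of Zfp710 and H2-Oa were 1.37 and 1.37. Cpne7 held over the 6 slide means (adjusted p = 0.0232) and the others of this group did not. Large falls outside the groups above were those of Slc4a8, a bicarbonate transporter (-1.84 ± 0.21, called without each trial, with -1.29 and -0.85 on its other probes, the second of them not called), Rab27a, a GTPase of vesicle release (-1.55 ± 0.23), Plekhs1 (-1.33 ± 0.24, and -0.80 with an adjusted p of 0.211 on its other probe), Parvg, an integrin-linked adaptor (-1.29 ± 0.24), and Slc23a3 (-1.23 ± 0.16). Of the large rises and falls of this group, Slc4a8 and Slc23a3 were the ones called without trial 2, and Cpne7, Slc4a8 and Rab27a those called without trial 1.

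Some chaperones of the endoplasmic reticulum and some interferon targets were called. Of 15 genes of the unfolded protein response, 5 rose, where 3.09% of all genes did: Sdf2l1 (1.06 ± 0.24), Creld2 (0.74 ± 0.16), Hyou1 (0.72 ± 0.17), Manf (0.60 ± 0.14) and Calr (0.51 ± 0.11, with -0.17 on its other probe), all folding or secreted stress proteins of that compartment. Chac1, a glutathione-degrading enzyme of the ATF4 branch, fell by 0.72 ± 0.17 in 12 of 12 pairs, and Hspa5, the chaperone BiP, differed by 0.53 ± 0.15 (adjusted p = 0.0676) and Ddit3 by 0.14 ± 0.14. The rises averaged more in aorta, for example 0.82 and 0.87 in WT and KO aorta against 0.38 and 0.33 in WT and KO muscle for Manf, without a tissue difference past the threshold. Of 20 interferon-stimulated genes, 4 rose: Oas1a (0.81 ± 0.16), Oasl2 (0.65 ± 0.11, 12 of 12 pairs), Ifit1 (0.51 ± 0.14) and Ifit3 (0.45 ± 0.11). The list had a median of 0.48, and 19 of 20 genes were above 0, against 56.3% of all genes. An unadjusted p under 0.05 was seen for 14, against 3162 higher among the 26712 probes tested. In antigen presentation, 1 of 12 genes rose, Ciita, the master regulator of MHC class II (1.64 ± 0.41), at levels near background, and of leukocyte adhesion and chemokine genes 1 of 19, Cx3cl1, fractalkine (0.57 ± 0.14), while Vcam1 differed by 0.33 ± 0.15. Of 9 galectin genes and partners, Lgals1 (0.79 ± 0.18) and Lgals3bp (0.64 ± 0.12) rose. Lgals3 differed by -0.67 ± 0.25 (adjusted p = 0.125). None of these calls held without trial 1, without trial 2 or over the 6 slide means.

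The other lists held few calls or none, where 3.09% of all genes rose and 1.82% fell. Among glucocorticoid targets, 1 of 15 fell, Lcn2, lipocalin 2 (-1.47 ± 0.23), and Fkbp5 differed by -0.78 ± 0.39. Hsph1, a cytosolic chaperone, rose by 0.85 ± 0.14 in 12 of 12 pairs, 1 of 16 in its list, and Unc5b, a netrin receptor of tip cells, by 0.83 ± 0.18, 1 of 19. Ehd2, which stabilises caveolae, rose by 0.47 ± 0.11 (0.15 on its other probe), 1 of 9 in its list, and Cav1 differed by -0.12 ± 0.14. Cd79b, a B cell receptor subunit, rose by 2.26 ± 0.59, 1 of 7 lymphocyte markers. In the cell cycle list 1 of 22 rose (Tyms, 0.42 ± 0.11), and among spliceosome and RNA binding genes 1 of 23 rose (Srsf3, 0.70 ± 0.12) and 2 fell (Malat1, -0.65 ± 0.17, with -0.65 to -0.01 on other probes, and Cirbp, -0.39 ± 0.10). None of these calls held without trial 2 or over the 6 slide means, and without trial 1 only that of Lcn2 did. By limma none was called of 24 respiratory chain genes, 22 cytosolic ribosomal protein genes, 20 glycolysis genes, 22 antioxidant genes, 18 immediate early genes or 18 haemostasis genes. These lists had 2, 0, 5, 9, 3 and 8 genes at an unadjusted p under 0.05, where 6299 of all 26712 probes tested had one.

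Differences between the responses themselves were tested in the same pairs. No probe was called for the response in aorta minus the response in muscle (limma, 2365 probes at an unadjusted p under 0.05) and none for the response in KO minus the response in WT (628). The smallest adjusted p between the tissues was 0.0699, for Elovl7, an elongase of long-chain fatty acids (-1.28 in aorta and 0.39 in muscle), Car3, a carbonic anhydrase abundant in fat (-3.73 and -0.38), Slc26a4, an anion exchanger (-3.61 and -0.13), and Serpina5, protein C inhibitor (2.29 and 0.12, over 11 pairs). Pnoc, the nociceptin precursor, came next (5.27 and -1.72, adjusted p = 0.0795). For Slc26a4, Serpina5 and Pnoc only 2, 4 and 6 of the 12 muscle arrays were well above background, so these probes passed the filter mainly through aorta and their muscle responses are differences between signals at or near background. In aorta on chow, Serpina5 was well above background on 2 of 6 arrays and Pnoc on 3 of 6, and on HFD both were on 6 of 6. The aorta responses of Serpina5 and Pnoc thus also rest on chow signals largely at or near background. Between the strains the smallest unadjusted p was that of Ypel1 (2.11 in KO and -0.45 in WT), and every adjusted p was near 1. The Ypel1 probe was well above background on 8 of 12 chow arrays and 10 of 12 HFD arrays. Its mean response of 0.83 over the 12 pairs became 0.32 with dim signals raised to the lowest signal well above background. On the gene's 2 other probes the mean response was -0.23 and -0.46, and their strain differences are not given here. Dbp, though it rose in each of the 12 pairs, averaged 2.70 in KO and 1.44 in WT (unadjusted p = 0.00025). Cyp2e1 averaged -5.06 in KO and -3.28 in WT (unadjusted p = 0.00134). Its means were -5.33 and -2.08 in KO and WT muscle but -4.80 and -4.49 in KO and WT aorta. Its KO muscle HFD levels in trials 2 and 3 were -8.06 and -7.31. The lowest signals well above background on those arrays were -5.97 and -5.95. The strain means and p-values of Ypel1, Dbp and Cyp2e1 rest on the labels of the trial 1 HFD libraries. Without trial 1 the difference between KO and WT was 3.33 for Ypel1. The KO and WT means were then 2.55 and 1.35 for Dbp (unadjusted p = 0.00788) and -4.92 and -3.57 for Cyp2e1 (unadjusted p = 0.0298). A p that misses the threshold does not show that the tissues or strains responded alike.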

How the data were processed

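Processed signal intensities were made by the authors with Agilent Feature Extraction, 9.1 in the submitters' processing notes and 10.5.1.1 per the file headers, which subtracted background without scaling arrays to each other. The deposited log2 table equalled the log2 of these intensities plus 1 constant per array. The scaling behind the paper's ratios is not given in the sources used here. Outlier spots were left out, the log2 of each intensity was taken relative to the 75th percentile of 43379 non-control spots (of 45018) on the array, and spots of a probe were averaged. By accession, 27190 probes matched 18535 symbols of the RefSeq table for GRCm38.p6. Precision is limited by the number of arrays.

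The 12 differences of HFD and chow arrays were fitted to their mean in limma 3.58.1 (R 4.3.3), and differences between tissues or strains were contrasts of the 4 group means of the same differences. Pairing within a trial follows the study's methods, which test HFD to chow ratios per experiment. Of the probes tested, 569 lacked a value in at least 1 pair (20 of those called). Genes named are the 12 with the largest change in each direction among probes called with 12 of 12 pairs of 1 sign (brightest such probe), list members on their brightest tested probe, genes the study named, and the smallest p of each difference. Lists were written from general knowledge. The members, lists and tests were chosen with earlier results of these data known. The fit was tested on simulated data. Trial numbers mark separate experiments, and pooled animals give no spread between single mice. The p-values of the main fit measure the spread between the 12 pair responses, which mixes differences between pools, tissues and strains. These responses share 6 slides and appear to rest on 6 sets of animals, so they are not fully independent. The alternatives were normexp background correction (offset 50, on median signals), quantile normalization, centring on the array median, the deposited table, other filters on dim probes, each trial left out, subsets of tissue, strain or scan session, other blocks, and the methods' t-test.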

Additional observations from a re-analysis of the deposited data

Results flagged for a closer look

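The responses of Arl14ep and Wac lay on opposite sides of 0 in the strains. For Arl14ep, an adaptor of the GTPase ARL14, the response was above 0 in all 6 KO pairs and below 0 in all 6 WT pairs, with a difference of 2.67 between KO and WT. For Wac, a regulator of histone ubiquitination, it was above 0 in all 6 WT pairs and below 0 in all 6 KO pairs, with a difference of -1.96. Neither difference passed limma's adjustment over all probes (adjusted p near 1). The further probes of both genes had mean responses between -0.77 and 0.17 over both strains, which do not show whether they differed between the strains. The Arl14ep probe was well above background on 9 of 12 HFD arrays and 9 of 12 chow arrays. The pairs of trial 1 use HFD libraries whose strain scores lay between those of the strains, with the aorta library labelled WT nearest to WT. In the 4 pairs of each strain left without trial 1, the signs stayed opposite for both genes, with differences of 2.59 for Arl14ep and -2.33 for Wac. Both genes were picked for a small p between the strains, so this is a description.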

How the results depend on the processing

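The main counts were 626 probes higher and 586 lower on HFD. Without a filter on dim probes they were 244 and 189, and with the probes well above background on all arrays 858 and 840. Without replicate 1, 2 or 3 (the trials) they ranged from 8 to 570 higher and from 6 to 464 lower, and leaving out trial 1 leaves the second scan session alone. Aorta pairs alone gave 8 and 14, muscle pairs 32 and 17, WT pairs 1 and 0, KO pairs 3 and 1, and the first scan session 0 and 0 (3582 probes at an unadjusted p under 0.05), all with fewer pairs. With no replicate block the counts were 335 and 329, with the slide as a block 977 and 901, and with the animal set as a random block 403 and 351 (consensus correlation 0.0793). With the replicate block and tissues averaged to 6 values they were 115 and 71, and with strains averaged to 6 slide values, an alternative chosen after seeing the data, 11 and 2. The methods' t-test gave 506 and 459. The counts under normexp, quantile normalization, median centring and the deposited table stayed within 1.5 times the main ones.

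Same-numbered HFD and chow arrays deviated together with correlations of 0.006 to 0.472 (median 0.238), above 0.1 in 7 of 12 pairs, and of the 1212 probes called, 615 were called with no block.

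The count for aorta minus muscle, 0 in the main fit, was 14 under normexp, 2 under quantile normalization, 25 among probes well above background on all arrays, 13 with the slide as a block and 4 with the animal set as a random block. That for KO minus WT was 0 under every alternative run. For the genes with the largest changes and those the study named, 192 values under the alternatives lost the threshold, 337 kept their side, and no called change turned its sign. The cause was not tested.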
